A study of Mus musculus with 8 samples.

Results

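The cytosolic ribosomal protein genes encode the protein parts of the ribosome that translates nuclear mRNAs. They were taken as the rows of the table whose symbol is Rpl or Rps with a number, Rplp with a number, or Rpsa, with at most a letter and a digit after it and without the ending that marks a pseudogene. The choice used names only and no measured value. It gave 89 genes of 55421 rows, 36 of the small subunit and 53 of the large subunit, spread over 19 chromosomes, and no symbol occurred on more than 1 row. Of the 89 genes, 83 are annotated as protein-coding in GENCODE mouse release M21. The other 6 are Rps4l, a processed transcript, and the processed pseudogenes Rps12l1, Rpl32l, Rps3a2, Rps3a3 and Rpl6l.

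Liver RNA came from 8 male C57BL/6J mice, 2 in each of 4 groups: sudachitin at ZT18, control at ZT18, sudachitin at ZT6 and control at ZT6. Zeitgeber time (ZT) counts hours from lights on, so ZT18 lies in the night, when mice feed, and ZT6 in the day. All the mice ate a high-fat diet with 45% of calories from fat without restriction. They were bought at 4 weeks, given 4 weeks to settle, and killed at 30 weeks of age. Sudachitin, a polymethoxylated flavone of the sudachi citrus fruit, was given at 100 mg/kg by gavage every other day at ZT8 to ZT10 to a cohort of 12, and controls, a cohort of 11, received the PBS vehicle in the same way. The sequenced animals are 2 per group from those cohorts, and the mouse codes in the titles start alike within each ZT6 group. The labels do not say what the codes stand for, so whatever the shared start marks cannot be told apart from the treatment there. No code start occurs at both ZT6 and ZT18, so what it marks cannot be told apart from the time either. Whole liver was used, so fewer cells of a type and less RNA per cell cannot be told apart.

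A ribosome holds 1 copy of nearly every ribosomal protein, and cells make them in matched amounts. Their mRNAs begin with a 5′ terminal oligopyrimidine (TOP) motif, a C followed by a short run of C and U, through which the kinase mTORC1 and the RNA-binding protein LARP1 set how strongly they are translated. In mouse liver the translation of these mRNAs is known to follow feeding and the clock, and ribosomes are built mainly in the feeding phase. The RNA counts used here measure the amount of mRNA and not its loading onto ribosomes.

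RefSeq promoter sequences of mouse assembly GRCm38.p6 were matched for 64 of the 89 genes by symbol. Below are 30 bases around the RefSeq start for genes that recur in the results, on the gene's strand, 15 bases before the start base and the rest from it on. Capitals mark the longest run of at least 5 pyrimidines that opens with C and begins within 10 bases of the start. The mark is looser than a TOP motif, which begins at the start of the mRNA. In Rps27l the marked run lies wholly before the RefSeq start, and a shorter unmarked run of 5 begins just after it. Rps27 also has a shorter unmarked run, before the marked one. In Rps2 the marked run begins 4 bases after the RefSeq start. In the last 3 sequences, shown for contrast, no such run begins within that distance, although Rpl4 has one that begins farther upstream.
Rps6, chr4:86857353-86857382, minus strand: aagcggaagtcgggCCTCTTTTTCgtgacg
Rpl38, chr11:114668565-114668594, plus strand: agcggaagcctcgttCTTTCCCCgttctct
Rps27, chr3:90213634-90213663, minus strand: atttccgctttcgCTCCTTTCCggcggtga
Rps27l, chr9:66946071-66946100, plus strand: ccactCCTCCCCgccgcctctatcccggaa
Rps2, chr17:24720048-24720077, plus strand: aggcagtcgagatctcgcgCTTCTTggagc
Rps28, chr17:33824548-33824577, minus strand: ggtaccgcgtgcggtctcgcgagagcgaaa
Rpl4, chr9:64173372-64173401, plus strand: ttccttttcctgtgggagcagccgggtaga
Rpsa, chr9:120127751-120127780, plus strand: gtgggttatttaaggacgtcatttccggcc

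Such a run was present in 35 of the 64 promoters (54.7%), against 31.1% of all 20780 promoters searched the same way. The 35 include Rpl10l, Rpl3l, Rpl39l and the pseudogene Rpl32l, whose counts in these livers were at or near 0. Among the 60 genes with counts high enough to be tested, 31 had such a run. The shorter CTTTC, on the sense strand and starting within 10 bases of the start, was in 14 of the 64 (21.9%), against 3.06% of all, and it overlaps the longer run. In windows of 300 bases and on both strands, CCGGAAG, the core bound by ETS-family factors, was in 24 of the 64 (37.5%), against 11.0% of all. GGGCGG, the GC box, was in 38 (59.4%) against 42.7%, and AAGATGGC, the core bound by YY1, in 5 (7.81%) against 3.06%. These are matches of letters and not measured starts or binding sites, and a RefSeq start a few bases off would move a gene across the line. The RefSeq start lay 70 bases from the start of the counted transcript for Rps28, 77 bases for Rpsa and 2614 bases for Rpl18. The 150 bases before the start are shown for 2 genes whose RefSeq start lies within 2 bases of the start in the table, with CCGGAAG or its reverse complement in capitals: Rps2 with 1 site and Rps21 with 2.
Rps2, chr17:24719913-24720062, plus strand: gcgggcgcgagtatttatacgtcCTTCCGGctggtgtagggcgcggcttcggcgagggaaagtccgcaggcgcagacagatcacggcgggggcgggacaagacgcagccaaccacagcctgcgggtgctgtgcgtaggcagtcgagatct
Rps21, chr2:180257229-180257378, plus strand: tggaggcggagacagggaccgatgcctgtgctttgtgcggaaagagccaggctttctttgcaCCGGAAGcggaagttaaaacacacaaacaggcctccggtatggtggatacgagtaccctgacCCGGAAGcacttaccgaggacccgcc

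Counts in exons came to between 13914116 and 17759630.5 per library. One library stood apart: in control ZT18 replicate 1 the male-biased liver genes summed to 7584 CPM, counts scaled to the counts in exons of the library, against 16660 to 25370 CPM in the other libraries, and the female-biased genes to 370.8 CPM, against 2.10 to 28.5 CPM. For the ribosomal protein genes as a set, each comparison that uses this mouse is also given without it. Values of some single genes and gene lists are given with this mouse only. Hepatocyte markers, 10 genes led by albumin (Alb), summed to 93030 to 111800 CPM in every library. Transcripts of the ribosomal RNA unit, which a poly(A) selection should remove, took 1.19% to 1.71% of counts in the sudachitin libraries and 0.419% to 0.525% in the control libraries.

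Ribosomal protein genes were among the abundant transcripts of these livers. FPKM divides a count by exon length in kilobases and by the size of the library, so it can be set against other genes. Of the 89 genes, 81 passed the filter on low counts, 33 of the small and 48 of the large subunit. Their mean FPKM ran from 5.83 to 259 with a median of 81.5, against a median of 1.88 FPKM over all 14506 rows tested. The median was 84.2 FPKM for the small and 79.0 FPKM for the large subunit.

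The highest were Rps2, a small subunit protein near the mRNA entry channel, at a mean of 259 FPKM, Rpl10, which joins the large subunit last, at 233 FPKM, and Rplp1, a protein of the acidic stalk, at 221 FPKM. Rpl7a, Rpl23a and Rpl19, all of the large subunit, followed at 154, 153 and 148 FPKM. Rps2 lay at 244 and 234 FPKM in sudachitin ZT18, 256 and 236 FPKM in control ZT18, 294 and 260 FPKM in sudachitin ZT6 and 266 and 280 FPKM in control ZT6 livers. The 4 ZT6 livers were all above the 4 ZT18 livers for Rps2, and the treatments overlapped at each time. Rpl10 spanned 203 to 259 FPKM and Rplp1 195 to 279 FPKM over the 8 livers, ranges that meet that of Rps2, whereas Rpl7a at 142 to 165 FPKM lay below all 3. Within a library Rps2 was above Rplp1 in 8 of 8 livers and above Rpl10 in 7 of 8, and Rpl10 was above Rplp1 in 6 of 8.

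At the low end, Rps15a, a small subunit protein, had 5.83 FPKM, Rps4l 8.56 FPKM, Rpl7l1, a paralog of Rpl7 known for large subunit assembly, 10.4 FPKM and Rpl22l1 11.1 FPKM. The Rps15a value rests on a transcript model of 5174 bases, while the tested ribosomal protein genes had a median exon length of 831 bases. Per library Rps15a lay between 56.9 and 74.3 CPM, which is not divided by length. The models of Rps20 with 3702 bases and Rpl18 with 2982 bases were also long, and these genes had 13.4 and 21.2 FPKM. The FPKM of a gene whose counted model is longer than its main mRNA is too low by that ratio.

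**Figure D1:**
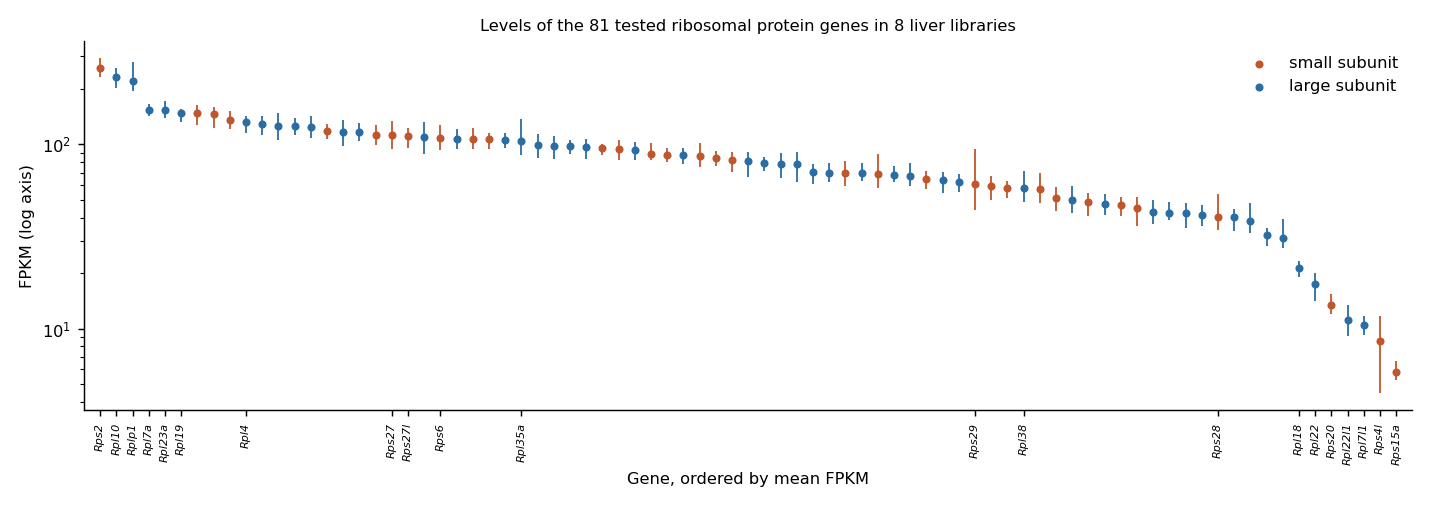
Mean FPKM on a log axis (points) and the lowest to highest of 8 liver libraries (vertical lines) for the 81 tested ribosomal protein genes, some of them labelled, ordered by level and coloured by subunit. Small and large subunit genes are mixed along the order, from Rps2 at 259 FPKM to Rps15a at 5.83 FPKM, and Rps4l has the widest line relative to its level.

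Several ribosomal proteins have a paralog that is expressed in few tissues, and these were told apart by their levels. Rpl10l, the testis copy of Rpl10, had a count of 0 in all 8 livers against 233 FPKM for Rpl10. Rpl3l, the muscle copy of Rpl3, had 0.0212 FPKM against 67.8 FPKM, and Rpl39l, the testis copy of Rpl39, 0.0141 FPKM against 30.9 FPKM. The highest count of Rpl3l in a library was 2.5 and of Rpl39l 2, so these genes were at or near 0. Rps27l, a p53 target, had 111 FPKM beside 112 FPKM for Rps27, and Rpl22l1 had 11.1 FPKM beside 17.5 FPKM for Rpl22. The retrocopies Rps12l1, Rpl32l and Rpl6l had 0.00834, 0.0451 and 0.152 FPKM, against 118, 96.7 and 97.5 FPKM for Rps12, Rpl32 and Rpl6. The 8 genes that did not pass the filter, which are Rpl10l, Rpl3l, Rpl39l, Rps12l1, Rpl32l, Rpl6l, Rps3a2 and Rps3a3, together held 5 to 23 counts per library. Reads of near-identical copies could have been split or dropped in counting, which makes the retrocopies uncertain.

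The share of a library taken by the ribosomal protein genes shows how they moved as a whole. It was 1.30% and 1.19% of counts in exons in sudachitin ZT18, 1.16% and 1.20% in the control ZT18 pair, 1.36% and 1.37% in sudachitin ZT6 and 1.21% and 1.30% in control ZT6 livers. Both sudachitin ZT6 livers were the highest of the 8, both control ZT18 livers lay just below both control ZT6 livers, and sudachitin ZT18 overlapped each control group. Group means with their SD over 2 mice were 1.25% ± 0.0775 in sudachitin ZT18, 1.18% ± 0.0286 in control ZT18, 1.36% ± 0.00198 in sudachitin ZT6 and 1.26% ± 0.0675 in control ZT6 livers. The ratio of mean shares was 1.05 for sudachitin against control at ZT18 and 1.09 at ZT6. For ZT18 against ZT6 it was 0.914 under sudachitin and 0.944 in controls. The shares are given as a description with no test, since the genes were chosen with results known. Without control ZT18 replicate 1 the ratio for treatment at ZT18 was 1.035 and that for time in controls 0.960.

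Small and large subunit genes kept step. The small subunit held 0.505% and 0.463% of counts in sudachitin ZT18, 0.454% and 0.464% in the control ZT18 pair, 0.527% and 0.529% in sudachitin ZT6 and 0.467% and 0.507% in control ZT6 livers. The large subunit held 0.796% and 0.728% in sudachitin ZT18, 0.710% and 0.741% in the control ZT18 pair, 0.836% and 0.837% in sudachitin ZT6 and 0.740% and 0.796% in control ZT6 livers. The ratio of the 2 sums stayed between 0.626 and 0.639 in all 8 libraries while the sums themselves differed by more. Pseudogene rows, 309 in number, held counts equal to 0.114% to 0.139% of those of the ribosomal protein genes, and adding them left each ratio of shares the same to 3 digits.

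**Figure D2:**
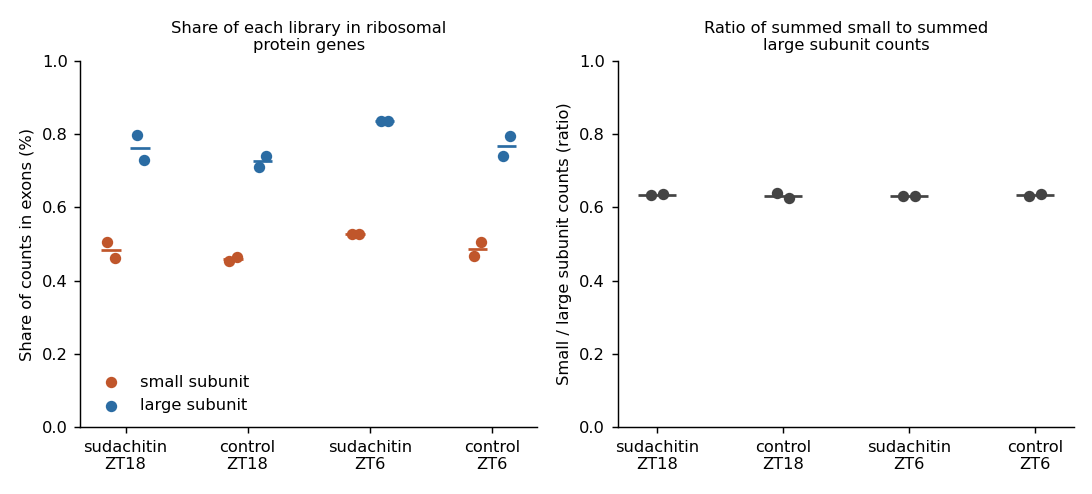
Left, percent of counts in exons held by small and by large subunit genes in each library (points) with the group mean (line), and right, the ratio of small to large subunit counts. Both sudachitin ZT6 livers lie above the other 6 for each subunit, and the ratio stays between 0.626 and 0.639.

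Single genes differed by mouse as well as by group. The SD of log2 CPM over the 8 livers had a median of 0.122 for the ribosomal protein genes, from 0.0691 to 0.469, against 0.235 over all tested rows. The median deviation of the 81 genes from their own means on the log2 CPM scale was 0.11 and -0.09 in sudachitin ZT18, -0.11 and -0.03 in the control ZT18 pair, 0.11 and 0.10 in sudachitin ZT6 and -0.09 and 0.02 in control ZT6 livers. The 2 sudachitin ZT18 mice were thus about as far apart as any pair of groups. Of the 81 genes, 24 had their highest level in sudachitin ZT18 replicate 1 (29.6%), against 10.8% of all rows, and 28 and 27 in the sudachitin ZT6 livers (34.6% and 33.3%), against 10.2% and 11.7%. Another 1 was highest in each control ZT6 liver and 0 in the other 3. The lowest level fell in control ZT18 replicate 1 for 35 genes (43.2%), against 18.5% of all rows, in control ZT6 replicate 1 for 17 (21%), against 12.2%, and in sudachitin ZT18 replicate 2 for 15 (18.5%), against 12.3%. Control ZT18 replicate 1 held extremes in general, since 19.7% of all rows were highest there. Genes of short exon length that are not ribosomal, 1674 rows under 1000 bases, deviated by medians of -0.08 to 0.05.

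**Figure D3:**
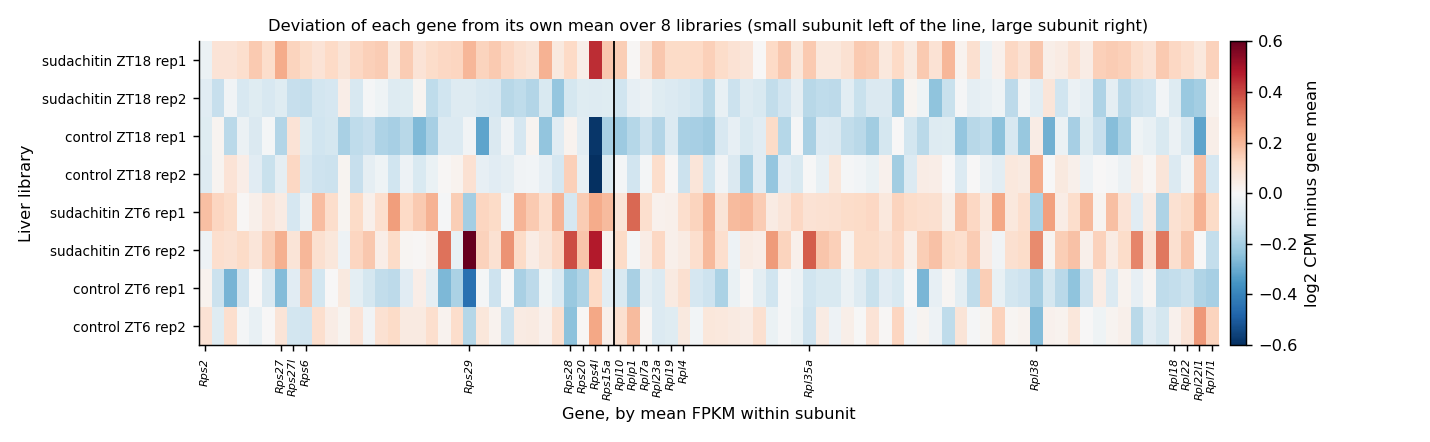
Each column is a tested ribosomal protein gene, some of them labelled, and each row a liver library; colour gives log2 CPM minus the gene's mean over the 8 libraries, with the small subunit left of the line. Rows are nearly uniform in colour, with sudachitin ZT18 replicate 1 and both sudachitin ZT6 livers mostly high and control ZT18 replicate 1 mostly low, and Rps4l, Rps29, Rps28 and Rpl38 break the pattern.

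The question of the study was how sudachitin acts on the liver at each time. At ZT18, 71 of 81 ribosomal protein genes were higher under sudachitin and 10 lower, against 49.6% of all rows higher and 50.4% lower, with a median log2 change of 0.08 and a median fold of 1.06. All rows had a median of -0.002. None of the 81 passed an adjusted p of 0.05 in edgeR's quasi-likelihood test, against 0.0138% of all rows, 1 had an unadjusted p under 0.05, against 6.51%, and DESeq2 also called 0, against 0.338% of all rows. Both sudachitin libraries lay above both controls in 17 genes (21%), against 15.3% of all rows, and below them in 0, against 15.5%. The count rests on 1 mouse: without sudachitin ZT18 replicate 1 only 36 of 81 were higher and the median was -0.01, and without replicate 2 all 81 were higher with a median of 0.17. Without control ZT18 replicate 1 it was 59 of 81 and a median of 0.03, the libraries then did not overlap in 23 genes that were higher (28.4%), against 31.3% of all rows, and in 6 that were lower (7.41%), against 30.5%. Of the lists of cell markers, those of stellate cells and fibroblasts were lower under sudachitin at ZT18 in 7 of 7 genes, with a median of -0.89 and sums of 213 to 255 CPM in sudachitin ZT18 and 272 to 321 CPM in control ZT18 livers. None of their genes was at 0, and without control ZT18 replicate 1 the median was -0.41. Neutrophil markers, of which 1 of 6 was tested, summed to 2.03 to 2.48 CPM in sudachitin ZT18 and 1.97 to 2.01 CPM in control ZT18 livers, with Ly6g, Mmp8 or Retnlg at 0 in each library. Their part in the ribosomal protein result was not tested. On log2(FPKM + 1), which scales to the totals in the file headers, 47 of 81 were higher. All rows had a median of -0.03 on that scale, against -0.002 in edgeR.

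Rps4l had the largest difference at ZT18. It is a single-exon copy of Rps4x, the X-linked small subunit protein, at chr6:148354656-148355598 (GRCm38, plus strand), annotated as a processed transcript without a coding sequence, so that its reads and those of Rps4x may not be separated. Its level was 22.7 and 15.8 CPM in sudachitin ZT18, 11.2 and 9.42 CPM in control ZT18, 19.5 and 23.2 CPM in sudachitin ZT6 and 18.1 and 19.6 CPM in control ZT6 livers. Both control ZT18 livers were lowest of the 8 and did not overlap any other group. At ZT18 the log2 change was 0.90 (SE 0.20), a fold of 1.87, with an adjusted p of 0.517 in edgeR's quasi-likelihood test. Rps4x itself was at 214 and 184 CPM in sudachitin ZT18 and 177 and 178 CPM in control ZT18 livers, a log2 change of 0.16 (SE 0.12). The Rps4l difference was 0.62 and 1.14 on leaving out each sudachitin ZT18 mouse and 1.035 without control ZT18 replicate 1. In an edgeR fit with no filter on low counts, which called 1.71% of all rows, its adjusted p was 0.000245, the lowest of alternatives that reached 0.998.

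Next came Rpsa, the laminin receptor and small subunit protein, and Rps24, needed for small subunit maturation. Rpsa was at 361 and 345 CPM in sudachitin ZT18 and 284 and 320 CPM in control ZT18 livers, without overlap, a log2 change of 0.22 (SE 0.12) and an adjusted p of 0.813 by edgeR. Rps24 was at 187 and 152 CPM under sudachitin and 137 and 156 CPM in controls, which overlap, a log2 change of 0.21 (SE 0.14). The changes were 0.14 for Rpsa and 0.12 for Rps24 without control ZT18 replicate 1. On the low side were Rps27l with -0.10, Rpl38, which helps translate Hox mRNAs in mouse embryos, with -0.08, and Rps28, a small subunit protein at the mRNA exit, with -0.07 on the log2 scale. Each of those overlapped between treatments, and each changed sign on leaving out a single mouse. They stood at -0.12, -0.17 and -0.13 without control ZT18 replicate 1.

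At ZT6 the shift was wider: 78 of 81 genes were higher under sudachitin and 3 lower, against 48.8% of all rows higher and 51.2% lower. The median log2 change was 0.15, a fold of 1.11, against -0.005 for all rows, and it was 0.14 for the small and 0.15 for the large subunit. None passed an adjusted p of 0.05 in edgeR, nor did any row of the table (0%), 2 had an unadjusted p under 0.05, against 2.12% of all rows, and DESeq2 also called 0, against 0.062%. Both sudachitin libraries lay above both control libraries in 46 of the 81 genes (56.8%), against 15.4% of all rows, and below them in 0, against 16.3%. The small subunit had 14 such genes of 33 and the large 32 of 48. Leaving out each ZT6 mouse in turn gave 70 to 76 genes higher and medians between 0.08 and 0.20. No single gene passed the threshold, and the median SE of a log2 change was 0.14.

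Rps29, a zinc-binding small subunit protein, had the largest change, with 43.0 and 76.8 CPM in sudachitin ZT6 and 36.4 and 44.0 CPM in control ZT6 livers. Only sudachitin ZT6 replicate 2 was high, the other sudachitin liver lay between the controls, and the log2 change was 0.57 (SE 0.25, adjusted p of 1 in edgeR). Without that library the Rps29 change was 0.10. Rps28 was at 34.9 and 49.0 CPM under sudachitin and 32.0 and 31.6 CPM in controls, and Rpl35a, a large subunit protein mutated in some Diamond-Blackfan anaemia, at 116 and 140 CPM under sudachitin and 101 and 100 CPM in controls. Neither overlapped, and the log2 changes were 0.40 (SE 0.17) for Rps28 and 0.35 (SE 0.16) for Rpl35a. They were 0.14 and 0.21 without sudachitin ZT6 replicate 2. Rps28 has 88 bases of exon that overlap a gene on the other strand.

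The 3 genes below 0 at ZT6 were Rps26, at the mRNA exit, with -0.04, and Rpl3 and Rpl4, both core proteins of the large subunit, with -0.03 and -0.002 on the log2 scale. Rpl4 was at 466 and 449 CPM in sudachitin ZT6 and 464 and 452 CPM in control ZT6 livers. Those values cover the same range, and the signs of Rpl3 and Rpl4 turned on leaving out single libraries. Macrophage markers also stood higher at ZT6 under sudachitin: 12 of 12 had a change above 0, with a median of 0.62, and they summed to 219 to 345 CPM in sudachitin ZT6 and 166 to 197 CPM in control ZT6 livers, with none of their genes at 0. For treatment at ZT18, 5 of the 12 macrophage markers were above 0, with a median of -0.03. Without control ZT18 replicate 1 it was 12 of 12 at ZT18, with a median of 0.54. Endothelial markers summed to 110 to 112 CPM in sudachitin ZT6 and 122 to 123 CPM in control ZT6 livers, with 1 of 7 above 0 and a median of -0.17. Erythroid markers summed to 359 to 411 CPM in sudachitin ZT6 and 322 to 356 CPM in control ZT6 livers, with 4 of 5 above 0 and a median of 0.26, and neither list had a gene at 0. Neutrophil markers summed to 2.43 to 3.63 CPM in sudachitin ZT6 and 1.62 to 1.89 CPM in control ZT6 livers, again with 1 of 6 tested and Ly6g, Mmp8 or Retnlg at 0 in each library. Their part in the ribosomal protein result was not tested. With the rows of the ribosomal RNA unit and of mitochondria left out of the total, the ratio of shares at ZT6 was 1.10 and at ZT18 1.06.

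**Figure D4:**
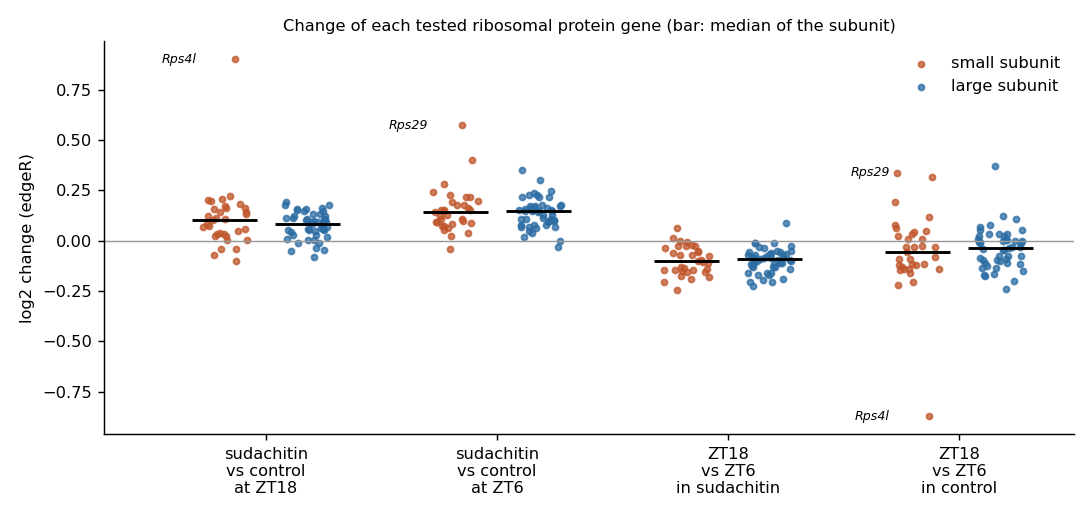
The log2 change of each tested ribosomal protein gene (points) in the 4 pairwise comparisons, with the median of each subunit (black bar). Small and large subunit medians lie side by side in every comparison, at 0.10 and 0.08 for treatment at ZT18 and 0.14 and 0.15 at ZT6, and Rps4l lies apart in 2 of the comparisons.

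Averaged over both times, 80 of 81 genes were higher under sudachitin, and only Rps27l, at -0.01, was not, against 49.7% of all rows higher and 50.3% lower. The median log2 change was 0.11, against -0.0008 for all rows, 0 genes passed in edgeR, against 0.0207% of all rows, and 1 had an unadjusted p under 0.05, against 4.41%. In 2 genes all 4 sudachitin livers lay above all 4 controls (2.47%), against 0.958% of all rows, and in 0 they lay below, against 0.869%. The count was again 2 without control ZT18 replicate 1, against 1.92% of all rows. This effect shares its libraries with the comparisons at each time and adds no further mice. Leaving out each library gave 78 to 81 genes higher. The interaction of treatment and time had a median of -0.04, with 29 of 81 genes above 0 and 52 below, against 49.5% and 50.5% of all rows. In it 0 of 81 genes passed, as did 0% of all rows, and 1 had an unadjusted p under 0.05, against 3.78% of all rows, which was Rps4l with 0.72 (SE 0.27, adjusted p of 0.998 in edgeR). Without sudachitin ZT18 replicate 1, 10 genes were above 0, without replicate 2, 52 were, and without control ZT18 replicate 1, 14 were. The interaction of Rps4l was 0.85 without control ZT18 replicate 1.

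The second question was how the genes differ between night and day. Under sudachitin 78 of 81 were lower at ZT18 than at ZT6, and 3 higher, against 49.1% and 50.9% of all rows, with a median log2 change of -0.10 against 0.01 for all rows. None passed in edgeR, against 0.186% of all rows, 0 had an unadjusted p under 0.05, against 12.6%, and DESeq2 called 0, against 1.89% of all rows. The libraries did not overlap in 20 genes that were lower (24.7%), against 22.3% of all rows, and in 1 that was higher (1.23%), against 23.5%. This rests on 1 mouse too: without sudachitin ZT18 replicate 2 the median was -0.002 and 39 of 81 genes were higher, and without replicate 1 it was -0.21.

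Rps3, a small subunit protein with a part in DNA repair, was lowest relative to ZT6 under sudachitin, at 192 and 157 CPM at ZT18 and 212 and 201 CPM at ZT6. The times did not overlap, the log2 change was -0.24 (SE 0.14) and the adjusted p 0.513 by edgeR. Rpl35a followed with -0.23 and Rpl13a, known for silencing inflammatory mRNAs when it leaves the ribosome, with -0.21. Rpl7l1 was higher by 0.09, Rps26 by 0.06 and Rps27l by 0.01. Of those 3 only Rps26 did not overlap, at 148 and 144 CPM at ZT18 and 142 and 137 CPM at ZT6. Erythroid markers summed to 276 to 352 CPM in sudachitin ZT18 and 359 to 411 CPM in sudachitin ZT6 livers, with 0 of 5 above 0, a median of -0.38 and no gene at 0. Lymphocyte markers summed to 45.9 to 81.9 CPM in sudachitin ZT18 and 17.3 to 36.4 CPM in sudachitin ZT6 livers, with 5 of the 7 tested of 13 above 0, a median of 0.41 and Cd8a at 0 in 1 ZT6 liver. Their part in the ribosomal protein result was not tested.

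In controls the genes did not move as one: 27 of 81 were higher at ZT18 and 54 lower, against 52.8% and 47.2% of all rows. The median log2 change was -0.04, against 0.02 for all rows, none passed in edgeR, against 0.524% of all rows, and 1 had an unadjusted p under 0.05, against 12.9%. DESeq2 called 1, Rps4l, with an adjusted p of 0.0277, against 1.81% of all rows called by DESeq2, where alternatives ran from 0.000499 to 0.486. The libraries did not overlap in 20 lower genes (24.7%), against 21.1% of all rows, and 7 higher ones (8.64%), against 21.3%. Without control ZT18 replicate 1 the libraries did not overlap in 25 lower genes (30.9%), against 37.3% of all rows, and 19 higher ones (23.5%), against 39.3%. The count of higher genes was then 38, and without control ZT6 replicate 1 it was 17, and the median lay between -0.11 and -0.004 on leaving out each library.

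Rps4l was again farthest from 0, with a log2 change of -0.87 (SE 0.20) and an adjusted p of 0.127 by edgeR, between -1.01 and -0.75 on leaving out each library. Rpl4 was at 379 and 397 CPM in control ZT18 and 464 and 452 CPM in control ZT6 livers, and Rpsa at 284 and 320 CPM at ZT18 and 350 and 354 CPM at ZT6. Neither overlapped, and their log2 changes were -0.24 (SE 0.12) and -0.22 (SE 0.12). On the other side were short mRNAs: Rpl38 at 46.8 and 52.9 CPM in control ZT18 and 39.4 and 37.8 CPM in control ZT6 livers, with Rps29 and Rps28. They did not overlap, and the log2 changes were 0.37 (SE 0.17), 0.34 (SE 0.25) and 0.32 (SE 0.17). These became -0.22 for Rpl4, -0.15 for Rpsa, 0.45 for Rpl38, 0.38 for Rps29 and 0.37 for Rps28 without control ZT18 replicate 1.

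Across the 81 genes, which share their libraries, the rank correlation of the change with exon length was 0.24 for treatment at ZT18, -0.33 for treatment at ZT6, -0.07 for time under sudachitin and -0.47 for time in controls, a description only. The last was -0.45 without control ZT18 replicate 1. The 1674 short rows that are not ribosomal had median changes of -0.02, 0.04, 0.01 and 0.08 in the same order. Their part in the changes of short ribosomal protein mRNAs was not tested. Cholangiocyte markers summed to 45.2 to 77.0 CPM in control ZT18 and 27.7 to 29.4 CPM in control ZT6 livers, with 5 of 5 above 0, a median of 1.03 and none at 0, and the median was 0.65 without control ZT18 replicate 1. Stellate and fibroblast markers summed to 272 to 321 CPM in control ZT18 and 222 to 252 CPM in control ZT6 livers, with 4 of 7 above 0 and a median of 0.23. Neutrophil markers summed to 1.97 to 2.01 CPM in control ZT18 and 1.62 to 1.89 CPM in control ZT6 livers. The part of these lists in the result was not tested.

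**Figure D5:**
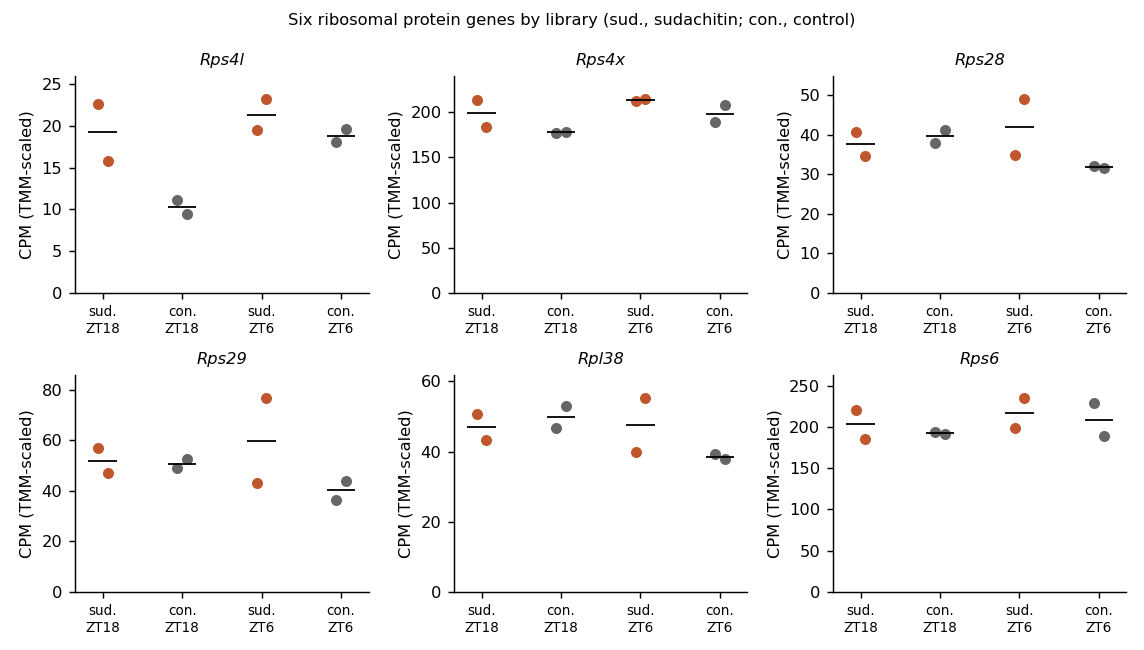
CPM by library (points, sudachitin orange, control grey) and group mean (line) for Rps4l, Rps4x, Rps28, Rps29, Rpl38 and Rps6. Both control ZT18 livers are lowest for Rps4l at 11.2 and 9.42 CPM, 1 sudachitin ZT6 liver is highest for Rps28, Rps29 and Rpl38, and the treatments overlap for Rps6 at ZT18.

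Averaged over both treatments, 71 of 81 genes were lower at ZT18 and 10 higher, against 47.3% and 52.7% of all rows, with a median of -0.06 against 0.02 for all rows. Without sudachitin ZT18 replicate 2, 28 were higher, and without control ZT18 replicate 1, 10 were. None passed in edgeR, although 3.68% of all rows did, and 1 had an unadjusted p under 0.05, against 20.4%. In Rps2 and Rpl3 all 4 ZT18 livers lay below all 4 ZT6 livers (2.47%), against 7.02% of all rows, and in 0 genes they lay above, against 5.99%.

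Genes with a known signalling role were measured with the others. Rps6, the protein phosphorylated by the kinase S6K below mTORC1, was at 221 and 186 CPM in sudachitin ZT18, 194 and 191 CPM in control ZT18, 199 and 235 CPM in sudachitin ZT6 and 229 and 189 CPM in control ZT6 livers. Both control ZT18 livers lay between the other mice for Rps6, and apart from control ZT18 and sudachitin ZT6 all pairs of groups overlapped. Rpl5 and Rpl11, which bind MDM2 when ribosome assembly fails, had log2 changes of 0.11 and 0.02 at ZT18 and 0.07 and 0.15 at ZT6 for sudachitin against control, with SEs of 0.14 and 0.13. The stalk proteins Rplp0 and Rplp2 had 0.15 and 0.05 at ZT18 and 0.10 and 0.18 at ZT6, and Rps27a, made as a fusion with ubiquitin, 0.10 at both times. None of these changes was as large as 2 of its SEs. Without control ZT18 replicate 1 the changes at ZT18 were 0.03 for Rpl5, 0.005 for Rpl11, 0.20 for Rplp0, 0.03 for Rplp2 and 0.03 for Rps27a.

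Some ribosomal proteins have names outside the Rpl and Rps pattern or a suffix it does not take, among them Fau, made as a fusion with a ubiquitin-like protein, Rpl36al, and Rack1, a scaffold on the small subunit. For sudachitin against control at ZT18 the log2 changes were -0.11 for Fau, 0.02 for Rpl36al and 0.17 for Rack1, and at ZT6 they were 0.13, 0.06 and 0.11. None of these passed in edgeR, and their SEs were 0.12 to 0.14. Another 16 genes of the translation machinery are known for TOP mRNAs, among them Eef1a1, Eef2, Pabpc1 and Tpt1. Of these 14 were higher at ZT6 and 13 at ZT18 under sudachitin, against 48.8% and 49.6% of all rows. The medians were 0.06 and 0.08, and 0 passed, against 0% and 0.0138% of all rows. Without control ZT18 replicate 1, 11 of the 16 were higher at ZT18, against 51.6% of all rows, with a median of 0.03. For ZT18 against ZT6 over both treatments 14 of 16 were lower, against 47.3% of all rows, with a median of -0.07.

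In that comparison 1 of the 16 passed (6.25%), against 3.68% of all rows: Eif4b, an mTORC1-regulated initiation factor and helicase partner. It was at 205 and 171 CPM in sudachitin ZT18, 176 and 164 CPM in control ZT18, 270 and 279 CPM in sudachitin ZT6 and 263 and 240 CPM in control ZT6 livers. All 4 ZT18 livers were below all 4 ZT6 livers, Eif4b fell by 0.56 on the log2 scale (SE 0.09, adjusted p of 0.0114 in edgeR), and without control ZT6 replicate 1 the adjusted p was 0.0542, the highest over the alternatives run.

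Among 38 ribosome biogenesis genes 2 rose and 1 fell at ZT18 over both treatments (7.89%), against 3.68% of all rows. Nolc1, a nucleolar chaperone of small RNA particles, was at 24.9 and 30.2 CPM in sudachitin ZT18, 29.7 and 33.2 CPM in control ZT18, 18.4 and 13.2 CPM in sudachitin ZT6 and 18.5 and 18.3 CPM in control ZT6 livers. Its groups did not overlap by time, and it rose by 0.79 (SE 0.12, adjusted p of 0.01 in edgeR). Rrp12, a factor of subunit export, rose by 0.70 (adjusted p of 0.0463), and Dkc1, the pseudouridine synthase, fell by 0.40 (adjusted p of 0.0441), both in edgeR. Of 20 genes of mTORC1 and translational control 1 passed (5%), against the same 3.68%: Eif4ebp3, an inhibitor of cap binding by eIF4E, at 29.4 and 45.3 CPM in sudachitin ZT18, 8.87 and 22.1 CPM in control ZT18, 6.88 and 3.48 CPM in sudachitin ZT6 and 6.62 and 8.23 CPM in control ZT6 livers. The times did not overlap for Eif4ebp3, and it rose by 1.95 (SE 0.43, adjusted p of 0.0433 in edgeR). Rrp12, Dkc1 and Eif4ebp3 lost the call on leaving out most single libraries, with adjusted p-values up to 0.143, 0.127 and 0.155.

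None of the 24 initiation factors, 13 RNA polymerase I genes or 75 mitochondrial ribosomal protein genes passed at any comparison. Of all rows, 0% to 0.524% passed in the pairwise comparisons and the interaction. For treatment over both times 0.0207% did, and for time over both treatments 3.68%. Eif3d and Eif3c, core parts of eIF3, had -0.36 in controls and -0.25 over both treatments for ZT18 against ZT6. Among polymerase I genes Rrn3 had 0.32 and Ubtf -0.25 over both treatments, both with an adjusted p of 0.096 in edgeR. Eif4ebp2, a relative of Eif4ebp3, had -0.32 with an adjusted p of 0.061. The 2 rows that passed for sudachitin against control at ZT18 and the 3 that passed over both times are all on the list of ribosomal RNA unit transcripts, where 5 of 5 were higher with medians of 1.55 at ZT18 and 1.33 over both times.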

How the data were processed

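Whole liver of 8 mice was sequenced as poly(A)-selected, non-stranded libraries on a NovaSeq instrument, per the labels' protocols. Trimmomatic 0.39, STAR 2.7.2a and HOMER are named in the submitters' processing notes. The deposited expression tables hold estimated counts in exons, in steps of 0.5 and not normalized, and FPKM, both for 1 canonical transcript per gene model of mm10, per the file headers. Strand use and the handling of reads with several positions are not given in the sources used here, and 17 ribosomal protein genes have an exon that overlaps another row.

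Counts were rounded, upward at ties, and tested with edgeR 4.0.16 in R 4.3.3: TMM, the default filter by group, quasi-likelihood F test, 4 group means over all 8 libraries, and an additive model for effects over both times or treatments. Benjamini-Hochberg values cover all 14506 tested rows, threshold 0.05. SE is the change divided by the square root of F. CPM of single genes is TMM-scaled, summed CPM of lists is scaled to counts in exons alone, and log2 CPM has a prior count of 2. DESeq2 1.42.0 and limma 3.58.1 on log2(FPKM + 0.1) and log2(FPKM + 1) were alternatives. Fits were tested on simulated data. Precision is limited by 2 mice a group; each title names a mouse, so libraries were taken as separate animals. Same-numbered libraries had correlations of their deviations between -0.204 and 0.281, so numbers were not used as pairs. Libraries of a group differed by more than counting error, at 16.3 to 56.8 chi-square units per degree of freedom.

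Ribosomal protein genes and the gene lists were chosen with earlier results of these data known. Named are members that passed, the 3 highest and 3 lowest changes in each pairwise comparison, the 6 highest and 4 lowest levels, paralogs and a fixed set (Rps6, Rpl13a, Rplp0, Rplp1, Rplp2, Rpsa, Rps27a, Rpl5, Rpl11); from each translation list, genes that passed and the 2 with the smallest p. Rps20, Rpl18, Rps4x and the genes shown by sequence alone were named after their values were seen. Cell marker lists are given where their sums did not overlap between the groups of a pairwise comparison, and macrophage markers at ZT18 as well. Some genes are not reported here by name.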

Additional observations from a re-analysis of the deposited data

How the results depend on the processing

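With 2 mice a group, direction rests on few animals. No ribosomal protein gene passed under any alternative except Rps4l: DESeq2 called 1 for time in controls, and no filter on low counts called 1 for treatment at ZT18, time in controls, treatment over both times and time over both treatments. Over all rows DESeq2 called 262 there in place of 76, and no filter called 488, 881, 309 and 1629 in place of 2, 76, 3 and 534. The median change for time under sudachitin was -0.18 with limma on log2(FPKM + 0.1) and on log2(FPKM + 1). All rows had medians of -0.07 and -0.04 on these scales, against 0.01 in the edgeR fit. Leaving out each library moved the median between -0.0125 and 0.17 for treatment at ZT18, between -0.21 and -0.00235 for time under sudachitin and between -0.16 and 0.033 for the interaction; it lay between 0.08 and 0.20 for treatment at ZT6. The sign of Rps27l for time under sudachitin turned with total counts (-0.0224), log2(FPKM + 0.1) (-0.0748) and log2(FPKM + 1) (-0.0741), of Rps26 there on both FPKM scales (-0.0185 and -0.0184), and of Rpl4 at ZT6 with no filter (0.0125) and only the groups compared (0.00412). Leaving out each library gave -0.0215 to 0.0300 for Rpl4 and -0.092 to 0.0365 for Rpl3 at ZT6; -0.244 to 0.0324 for Rps27l, -0.201 to 0.0247 for Rpl38 and -0.192 to 0.0394 for Rps28 for treatment at ZT18; and -0.136 to 0.141 for Rps27l and -0.044 to 0.208 for Rpl7l1 for time under sudachitin. The causes were not tested. The ratios of shares moved by less than the spread between mice under every alternative, which included protein-coding genes alone, chosen after seeing the data. Leaving out 1 of 2 mice shifts a group mean by less than the SD of the pair, so this says little for those fits. On leaving out each library the ratio ran from 1.006 to 1.099 for treatment at ZT18 and from 1.047 to 1.13 at ZT6. It ran from 0.8735 to 0.9538 for time under sudachitin and from 0.9091 to 0.981 for time in controls. With the replicate number as a block 0 ribosomal protein genes passed in each comparison, the medians were 0.15 and 0.09 for treatment at ZT6 and ZT18, and over all rows time over both treatments called 461 in place of 534. Fits with only the groups compared exist for the 4 pairwise comparisons alone.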

Other observations

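The mitochondrial ribosome translates the mitochondrial genome, although its proteins are also encoded in the nucleus. Under sudachitin 45 of its 75 genes were higher at ZT6 and 21 at ZT18, against 48.8% and 49.6% of all rows. The median log2 changes were 0.03 and -0.07. None of the 75 passed in edgeR at ZT6, at ZT18 or in the interaction, against 0%, 0.0138% and 0% of all rows. Without control ZT18 replicate 1, 33 of the 75 were higher at ZT18, against 51.6% of all rows, with a median of -0.02. Summed, they held 2021 to 2037 CPM in sudachitin ZT18, 2057 to 2253 CPM in control ZT18, 2100 to 2182 CPM in sudachitin ZT6 and 1973 to 2213 CPM in control ZT6 livers, and Mrpl1 and Mrps27 had the smallest p, with -0.22 over both treatments and -0.47 in controls for ZT18 against ZT6. Of the 38 biogenesis genes 14 were higher under sudachitin at ZT6 and 4 at ZT18, against the same 48.8% and 49.6%, with medians of -0.03 and -0.11. Without control ZT18 replicate 1, 8 of the 38 were higher at ZT18, against 51.6% of all rows, with a median of -0.14. For ZT18 against ZT6, 22 were higher under sudachitin and 30 in controls, against 50.9% and 52.8% of all rows. In controls without that mouse 28 were, against 50.1%. Whether these differ from the cytosolic ribosomal protein genes was not tested.

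Among tested ribosomal protein genes with a RefSeq promoter, 31 had a pyrimidine run beginning within 10 bases of the start and 29 did not. Their median changes were 0.08 and 0.06 for treatment at ZT18, 0.15 and 0.11 at ZT6, -0.07 and -0.11 for time under sudachitin and -0.03 and -0.04 for time in controls.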
